A study of Mus musculus with 16 samples.

Results

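Cytotoxic lymphocytes of the gut, many of which lie between the cells of the epithelium, were followed through 9 genes measured in the colon of mouse pups: the granule genes Gzma, Gzmb, Gzmk, Prf1 and Nkg7, the receptor genes Klrd1 and Cd160, the integrin gene Itgae and the co-receptor gene Cd8b1. They were taken by name from the arrays, where 11 probes carried them, and are 9 of the 36711 genes measured. All 16 arrays of the series were used, each holding the colon RNA of a different pup. C-section-delivered (CSD) pups numbered 8, with 4 females and 4 males, from the litters of mothers 3 and 4 (4 pups each). Vaginally delivered (VD) pups numbered 8, with 2 females and 6 males, from the litters of mothers 5 (5 pups) and 6 (3 males). Per the study's methods these were conventional RjOrl:SWISS mice sampled at weaning, the CSD litters were taken by hysterectomy and raised by foster mothers, and the VD litters were exchanged between mothers. The labels give no age and no germ-free status for a pup, and their shared treatment text also mentions experiments on formerly germ-free mice. Each litter belonged to a single delivery group, so delivery cannot be told apart from what sets these 4 litters apart in other ways.

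Intraepithelial lymphocytes are T cells that sit among the epithelial cells of the gut and hold there through the integrin of alpha E, encoded by Itgae, and beta 7, which binds E-cadherin. Many carry CD8 and are armed like killer cells. Their granules hold perforin, which opens the target cell's membrane, and granzymes, proteases that then kill it. Natural killer (NK) cells use the same granules, so that a granzyme level in whole tissue does not name its cell of origin.

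The tissue label was colon. All 6 colonocyte markers, among them the hindgut gene Hoxb13, were well above background on all 16 arrays. Of 8 small intestine markers, Lct, Sis, Apoa1 and Apoa4 were not well above background on any array, Fabp2, Fabp6 and Slc10a2 were on all 16, and Alpi was on 3 of 8 CSD and 4 of 8 VD arrays. The 14 T cell markers were all detected on all 16 arrays. Whole colon also holds lymphoid follicles, and 8 of 9 B cell markers were detected on all arrays as well. The cells that gave the signal of the 9 genes were not identified here. In such bulk RNA, fewer cells of a type and less RNA per cell cannot be told apart.

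Of the 9 genes, 6 (Gzma, Prf1, Nkg7, Klrd1, Itgae and Cd8b1) were well above background on every array by the scanner software's own flag, Itgae through its brighter probe. Gzmb was so on 4 of 8 CSD and 7 of 8 VD arrays. Cd160, a receptor of NK cells and intraepithelial lymphocytes, was above background on 1 VD array, and neither probe of Gzmk, a granzyme of memory T cells, was on any array. The starts of the probes behind the main results are shown so that the measured transcripts can be found again; each is the opening 30 bases of a 60-base probe, 5′ to 3′ as the array file gives it.
Cd8b1: gaactcccacaccaccatgtactcttcttg
Nkg7: cagcagggtcatcaggatgtttggagcctg
Klrd1: gccagagcactgcattgtttacagtccaag
Gzma: tgtctttcactccatccctgtcacttctgt
Prf1: actgcctcagccctgcaatgcccgaaagct
Itgae, brighter probe: catcggaggcctcctggtcttggttgtgat
Itgae, dimmer probe: ataggacagcagatatcactgtgaccatct
On the mm9 build these probes lie at chr6:71286937-71286996 (+) for Cd8b1, chr7:50693482-50693541 (+) for Nkg7, chr6:129548391-129548450 (+) for Klrd1, chr13:113884035-113884094 (-) for Gzma and chr10:60766941-60767000 (+) for Prf1. The Itgae probes span chr11:72959105-72960563 (+) and chr11:72945236-72946221 (+), each longer than its 60 bases and therefore crossing an intron. Gzmb was read at chr14:56877916-56877975 (-), Cd160 across an intron at chr3:96609753-96612738 (-), and Gzmk at chr13:113962100-113962159 and chr13:113961816-113961875 (-). The coding or untranslated part under each probe was not annotated here.

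VD pup 6, a male of mother 6, stood apart in several of these genes, and its values are given here. Its Cd8b1 level was 10.09 on the log2 scale of normalized intensity, against a median of 8.09 in the other 7 VD pups. Nkg7, a granule membrane protein of NK and cytotoxic T cells, was at 9.65 in this pup against 8.56. Klrd1, which encodes CD94, a chain of NK receptors, was at 8.16 against 7.42. This pup had the highest level of all 16 pups for 5 of the 9 genes (Gzma, Gzmk, Nkg7, Klrd1 and Cd8b1), where it was highest for 7% of all genes without a missing value. For 4 of the 9 (Gzmk, Nkg7, Klrd1 and Cd8b1) its gap to the next VD pup took up more of the VD range than the 95% limit for 8 samples in Dixon's test, as it did for 1.61% of all genes. Prf1 ranked 2 of 16 in it, and Gzmb, Itgae and Cd160 ranked 5. Gzmk was at background on every array, so its place here is a rank among background values.

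The pup's other marker genes gave the setting. It was the highest of 16 pups for 13 of 14 T cell markers, among them Cd3e, a chain of the T cell receptor complex, at 9.58 against a median of 8.70 in the other VD pups. Cd4, which marks helper T cells, was the exception, at 8.26 against 8.34. Cd8a, the partner chain of Cd8b1, was at 7.05 against 6.26. The pup was also highest for 5 of 6 common leukocyte markers, 3 of 8 lymphoid follicle markers, 2 of 9 B cell markers, 5 of 9 myeloid markers and 7 of 15 NK and innate lymphoid markers, and for 0 of 8 epithelial and 0 of 10 mast cell markers. Its summed levels of the T cell, common leukocyte, follicle, myeloid and NK and innate lymphoid markers were each the highest of the 16 pups. Its array had 64.3% of spots well above background, within the 58.7% to 64.9% of the 16 arrays.

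**Figure D1:**
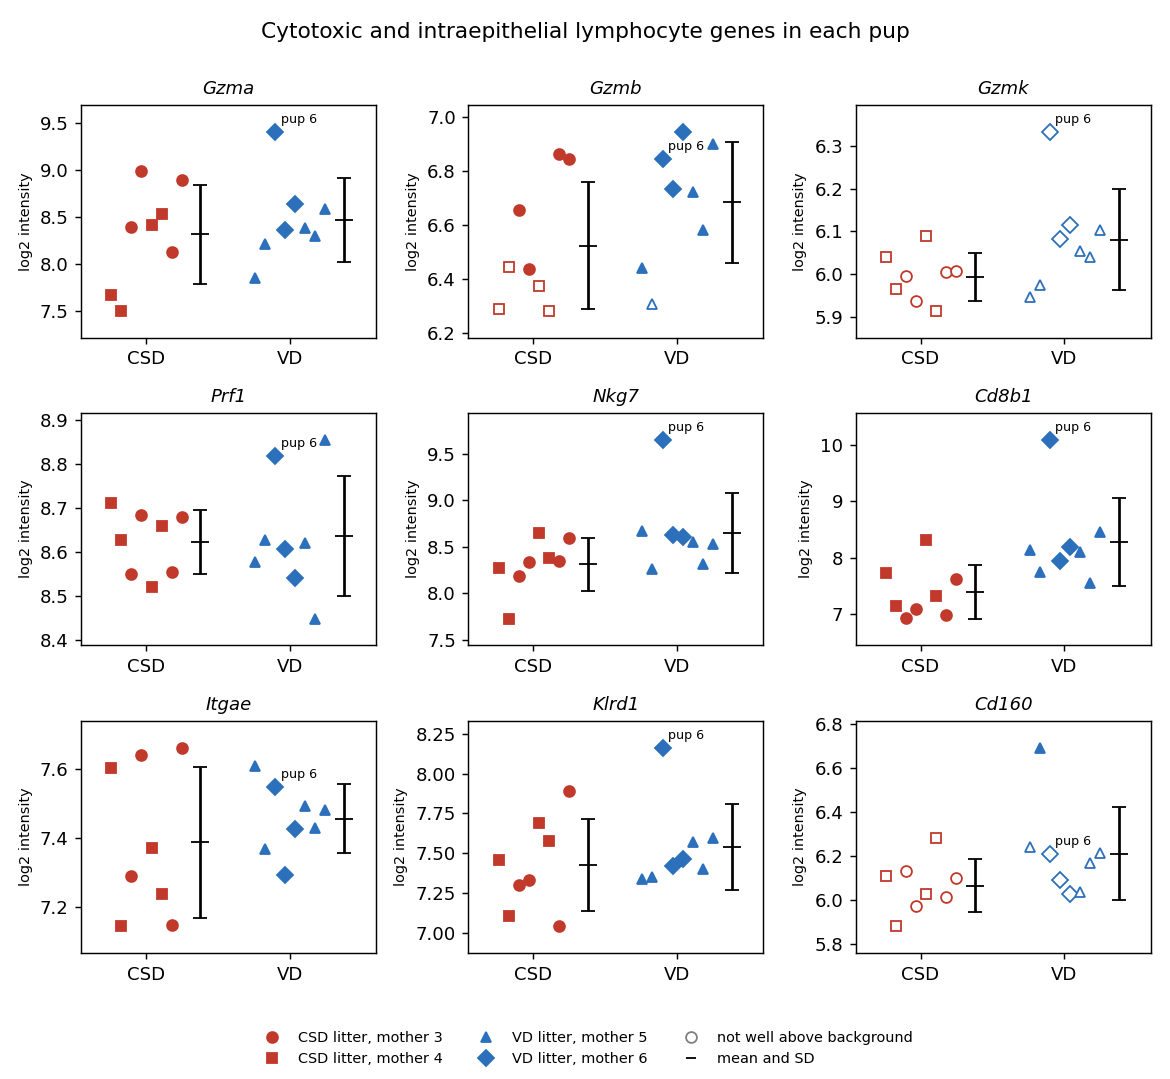
Log2 normalized intensity (vertical axes) of the 9 genes in each CSD (red) and VD (blue) pup; marker shapes give the litter, open markers were not well above background, and bars give the mean and SD of 8 pups. VD pup 6 lies above all other pups in Gzma, Gzmk, Nkg7, Klrd1 and Cd8b1, and in Cd8b1 most CSD pups lie under most VD pups.

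Delivery was compared gene by gene with limma across all 36711 genes, with sex as a covariate and the mother as a random effect. None of the 9 genes passed an adjusted p of 0.05, against 1.25% of all genes (0.548% with a lower level in CSD). At an unadjusted p under 0.05, 1 of the 9 passed, Cd8b1, against 14.5% of all genes (7.09% lower and 7.37% higher in CSD). The 9 estimates were all below 0, that is lower in CSD, as were 48.3% of all genes, and their median was -0.08 on the log2 scale. Several of the 9 moved together across pups, and Gzmk and Cd160 were at background.

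Cd8b1, the beta chain of the CD8 co-receptor of conventional killer T cells, had the largest difference of the 9. In CSD pups it ran from a lowest level of 6.93 through a median of 7.24 to 8.32, and in VD pups from 7.56 through 8.12 to 10.09. The groups overlapped, but 5 of 8 CSD pups lay below every VD pup, and only 1, CSD pup 6, lay above the VD median. The mean and SD over 8 pups each were 7.40 ± 0.47 for CSD and 8.28 ± 0.78 for VD. With sex and the mother in the model the log2 fold change was -0.79 (SE 0.31, 95% interval -1.45 to -0.13), which is 1.73-fold more intensity in VD. Its limma p was 0.0213 and its Benjamini-Hochberg adjusted p 0.232, so it failed the correction. The mother entered with a consensus correlation of only 0.0152, so this SE and interval treat the pups as nearly independent. With litter means as samples the log2 fold change of Cd8b1 was -0.975 (limma adjusted p 0.395). A two-sided exact permutation test of the plain group means, which takes no account of sex or litter, gave p = 0.00637. Without VD pup 6 the log2 fold change was -0.57 (SE 0.19, 95% interval -0.99 to -0.16) with a limma adjusted p of 0.183; over all alternatives this adjusted p ran from 0.105 to 0.628.

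The 4 litters kept the order of the groups for Cd8b1. Pups of mothers 3 and 4 averaged 7.16 and 7.63, and those of mothers 5 and 6 averaged 8.0 and 8.74. VD pup 6, at 10.09, raised the mean of mother 6, whose other pups were at 7.94 and 8.20. Both CSD litters thus lay under both VD litters, as they did for 20.3% of all genes. In either direction, 42% of all genes had litter means separated by delivery in this way. The same order held for 4 of the 9 genes, Cd8b1, Nkg7 and the background-level Gzmk and Cd160. Each of the 2 slides carried 4 CSD and 4 VD pups, and the group difference in Cd8b1 was -0.60 on slide 1 and -1.17 on slide 2, which holds VD pup 6.

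No granule gene passed the adjusted threshold. Gzma, a trypsin-like granzyme, ran from 7.50 through a median of 8.40 to 8.99 in CSD and from 7.85 through 8.37 to 9.40 in VD. The groups overlapped over most of their range. Its log2 fold change was -0.04 (SE 0.22, 95% interval -0.51 to 0.42, limma adjusted p 0.954). The interval is wide and holds differences of either sign. Prf1, the perforin gene, varied little, from 8.52 through 8.64 to 8.71 in CSD and from 8.45 through 8.61 to 8.86 in VD. Its log2 fold change was -0.01 (SE 0.06, 95% interval -0.14 to 0.11, limma adjusted p 0.940), a narrow interval around 0.

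Nkg7 ran from 7.73 through 8.34 to 8.64 in CSD and from 8.26 through 8.58 to 9.65 in VD. Most pups of both groups lay between the lowest VD and the highest CSD pup. Its log2 fold change was -0.27 (SE 0.17, 95% interval -0.62 to 0.09, limma adjusted p 0.505), and -0.15 (95% interval -0.37 to 0.08) without VD pup 6. Gzmb, the aspartate-cleaving granzyme of activated killer cells, averaged 6.52 ± 0.23 for CSD and 6.68 ± 0.22 for VD (SD, n = 8 each). The log2 fold change of Gzmb was -0.10 (SE 0.10, limma adjusted p 0.707), a value that rests partly on background levels. The 4 CSD arrays on which it was above background were the 4 pups of mother 3. For Gzmk no fold is given, since both groups were at background.

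Klrd1 ran from 7.04 through 7.39 to 7.89 in CSD and from 7.34 through 7.45 to 8.16 in VD. Its log2 fold change was -0.05 (SE 0.13, 95% interval -0.32 to 0.22, limma adjusted p 0.897). Without VD pup 6 the estimate was 0.02 (95% interval -0.20 to 0.24), and without CSD pup 8 it was 0.05, so its sign depended on each of these pups. Gzma and Prf1 also turned sign without VD pup 6, to 0.06 and 0.01. Cd160 was above background only in VD pup 5, a female, at 6.69, and was between 5.88 and 6.28 in the other 15 pups, so no fold is given for it.

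Itgae, the alpha E chain that ties lymphocytes to E-cadherin, ran from 7.14 through 7.33 to 7.66 in CSD and from 7.29 through 7.45 to 7.61 in VD. The VD pups lay inside the CSD range. Its log2 fold change was -0.08 (SE 0.09, 95% interval -0.27 to 0.10, limma adjusted p 0.732). The value is the mean of the brighter probe, at 8.18 in CSD and 8.29 in VD, and the dimmer probe, at 6.59 and 6.62, which correlated over the 16 pups at r = 0.66. The dimmer probe was above background on only 7 of 8 CSD and 7 of 8 VD arrays. Its difference of group means was -0.03, against -0.10 for the brighter probe.

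**Figure D2:**
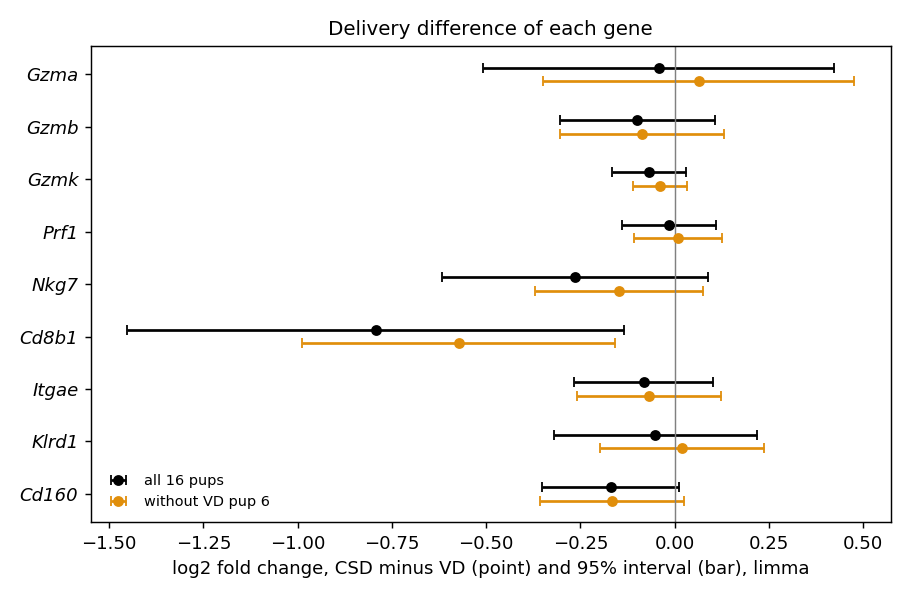
Log2 fold change between CSD and VD pups (horizontal axis, below 0 is lower in CSD) from limma with its 95% interval, over all 16 pups (black) and without VD pup 6 (orange). The Cd8b1 interval, from -1.45 to -0.13, is the one that lies wholly under 0, and Gzmk and Cd160 were at background.

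Sex was compared within the same model. None of the 9 genes passed an adjusted p of 0.05 (0.0599% of all genes did), and 1 passed at an unadjusted p under 0.05, against 6.45% of all genes. That gene was Gzmb, with male pups above females by 0.25 on the log2 scale (SE 0.10, limma p 0.0203, adjusted p 0.715). Male VD pups averaged 6.79 and female VD pups 6.38, and male and female CSD pups 6.59 and 6.46. For Gzma the male minus female difference was 0.44 (SE 0.22, limma adjusted p 0.790), for Nkg7 0.31 and for Klrd1 0.25. VD pup 6, a male, was the highest of all 16 pups in Gzma, Nkg7 and Klrd1, at 9.40, 9.65 and 8.16.

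The delivery difference was compared between the sexes by an interaction term, with only 2 VD females. No member of the 9 passed an adjusted p of 0.05, against 0.00272% of all genes. Cd160 had an unadjusted p under 0.05, as did 4.72% of all genes (limma adjusted p 0.981). Its values were at background on 15 of 16 arrays, and the pup above background is 1 of the 2 VD females, so no size is given.

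Litters of the same delivery group were also compared. Between the CSD litters 0 of the 9 passed an adjusted p of 0.05 (0.0872% of all genes), and 2 did unadjusted (7.69% of all genes). Gzmb was higher in pups of mother 3 than of mother 4, at 6.70 ± 0.20 (SD, n = 4) and 6.35 ± 0.08 (SD, n = 4), with limma p 0.00228 (adjusted p 0.260). All pups of mother 4 were at background for Gzmb, so no fold is given. Gzma was at 8.60 and 8.02 in these litters (log2 difference 0.57, limma p 0.0408, adjusted p 0.618). The delivery estimates of these genes were -0.10 and -0.04, and for Cd8b1 the order of the CSD litters was the opposite, with a log2 difference of -0.47 (limma adjusted p 0.829). Between the VD litters 0 of the 9 passed (0.874% of all genes), and at an unadjusted p under 0.05 only Gzmk, at background, did (11.5% of all genes).

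Pearson's r across the 16 pups was computed for the 15 pairs of the 6 detected genes, with permutation p-values adjusted over the 15 pairs by the Benjamini-Hochberg method; pups of a litter are not fully independent. Nkg7 and Cd8b1 gave r = 0.88 (rho 0.74, permutation p 0.00016 for r, adjusted 0.0024). Leaving out VD pup 6 and CSD pup 2, the farthest from the median of Nkg7, r was 0.73, and within CSD and VD pups it was 0.57 and 0.96. Without VD pup 6 alone it was 0.68, and among the VD pups then left it was 0.69. Klrd1 and Cd8b1 gave r = 0.78 (rho 0.71, permutation p 0.001 for r, adjusted 0.005), 0.71 without its 2 farthest pups (VD pup 6 and CSD pup 9), and 0.56 without VD pup 6 alone. Nkg7 and Klrd1 gave r = 0.80 (rho 0.62, permutation p 0.00045, adjusted 0.00337), 0.49 without VD pup 6 and CSD pup 2, and 0.61 without VD pup 6 alone. Within CSD pups r of Nkg7 and Klrd1 was 0.73, and within VD pups it was 0.91, but 0.22 once VD pup 6 was left out.

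The r of Gzma with Cd8b1 was 0.48 (rho 0.29, permutation p 0.0664, adjusted 0.121), and -0.11 once the 2 farthest pups were left out. With Nkg7 it was 0.70 (rho 0.45, permutation p 0.00321, adjusted 0.00963), but 0.16 without VD pup 6 and CSD pup 2, so that relation rests on those pups. With Klrd1 it was 0.71 (rho 0.62, permutation p 0.00249, adjusted 0.00934), and 0.42 without the same pups. All other pairs, which take in every pair of Prf1 and of Itgae, had an adjusted permutation p of 0.0837 or more.

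Some marker lists of other cells moved with Cd8b1. Each sum adds linear intensities, so its brightest genes weigh most. The T cell sum is largely a reading of Thy1, with means of 12.39 in CSD and 12.82 in VD. The next brightest of its markers, Cd2, averaged 9.25 and 10.13. This summed level of the 14 T cell markers ran on the log2 scale from 12.93 through a median of 13.04 to 13.60 in CSD. In VD it ran from 13.37 through 13.60 to 14.29. Across the 16 pups Cd8b1 followed this sum with r = 0.92 (rho 0.81), and r = 0.87 without VD pup 6. Within CSD pups r was 0.87, and within VD pups it was 0.90 but 0.43 once VD pup 6 was left out. It also followed the sums of the common leukocyte markers (r = 0.89, rho 0.86, and r = 0.88 without VD pup 6) and of the lymphoid follicle markers (r = 0.82, rho 0.84, and r = 0.84 without VD pup 6). Its r with the B cell sum was 0.64, and 0.65 without VD pup 6. With the NK and innate lymphoid sum it was 0.47, and 0.19 without that pup. With the mast cell and epithelial sums it was -0.04 and -0.23. This NK and innate lymphoid sum of 9 markers was carried mostly by Klra1 (means of 11.17 in CSD and 10.71 in VD) and Tyrobp (10.83 and 11.10). The next brightest, Hcst, averaged 9.16 and 9.58, so an r with this sum mostly reads the first 2 genes. Gzma followed the T cell sum with r = 0.48, and 0.19 without VD pup 6. With the NK and innate lymphoid sum its r was 0.72 (0.62 without VD pup 6). Within CSD pups the latter r was 0.86, and within VD pups 0.58, but -0.21 once VD pup 6 was left out. Nkg7 and Klrd1 followed both sums, with r = 0.82 and 0.77 for T cells and 0.72 and 0.77 for NK and innate lymphoid markers. Without VD pup 6 these were 0.67 and 0.60 for T cells and 0.65 and 0.68 for NK and innate lymphoid markers. Among the 7 VD pups left, Nkg7 had r = -0.05 with the T cell sum and 0.86 with the NK and innate lymphoid sum, and Klrd1 had 0.63 and 0.25. These are descriptions over pups that share litters and slides. The part of the other cells in these results was not tested.

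**Figure D3:**
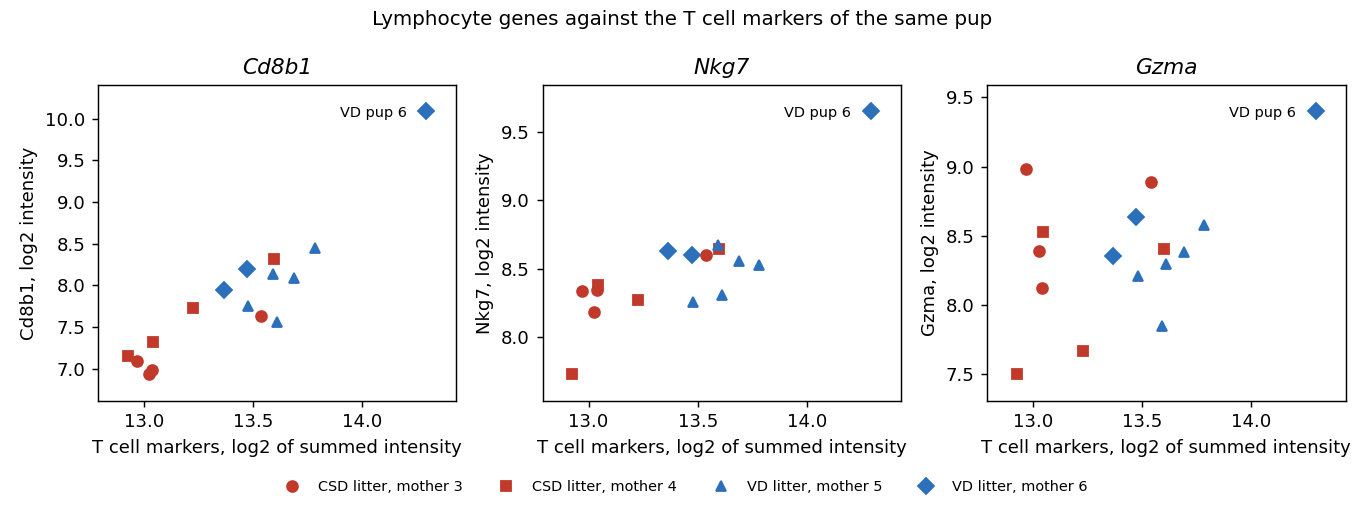
Log2 intensity of Cd8b1, Nkg7 and Gzma (vertical axes) against the log2 of the summed intensity of 14 T cell markers (horizontal axis) in each of 16 pups, by litter. Thy1, the brightest marker, weighs most in that sum. Cd8b1 climbs with the T cell markers across all pups (r = 0.92), within VD pups mostly through pup 6 (r = 0.43 without it), while CSD pups with low T cell markers hold Gzma levels from 7.50 to 8.99.

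Of the T cell markers, 13 of 14 had a lower estimate in CSD (48.3% of all genes), 0 passed the adjusted threshold (1.25% of all genes), 7 had a lower level at an unadjusted p under 0.05 (7.09% of all genes), and the median log2 fold change was -0.36 (0.0029 over all genes; -0.25 for the list without VD pup 6). Thy1, listed here as a T cell marker, averaged 12.39 in CSD and 12.82 in VD (log2 fold change -0.39, SE 0.10, limma adjusted p 0.062). Cd2, a T cell adhesion receptor, averaged 9.25 and 10.13 (log2 fold change -0.77, SE 0.26, limma adjusted p 0.162).

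The B cell, follicle, common leukocyte and myeloid lists were also mostly lower in CSD. All 9 B cell markers had a lower estimate in CSD (48.3% of all genes; median -0.35), and 5 did at an unadjusted p under 0.05 (7.09% of all genes), with Fcer2a, the IgE receptor CD23 of B cells, at -0.57 (SE 0.15, limma adjusted p 0.075) and Cd79a, a chain of the B cell receptor complex, at -0.48 (limma adjusted p 0.0993). All 8 lymphoid follicle markers did too (median -0.575), with Ccl20, a chemokine of the epithelium over follicles, at -0.89 (SE 0.26, limma adjusted p 0.103) and Ccl21a, a chemokine of T cell zones and lymphatics, at -0.48 (limma adjusted p 0.192). All 6 markers common to leukocytes did (median -0.35), with Coro1a, an actin-binding protein of leukocytes, at -0.69 (SE 0.20, limma adjusted p 0.106) and the surface glycoprotein gene Cd52 at -0.39 (limma adjusted p 0.131). Of 9 myeloid markers 8 did (median -0.17, and -0.0983 without VD pup 6), with the integrin gene Itgax at -0.23 and the macrophage gene Cd68 at -0.26 (limma adjusted p 0.149 and 0.180). At an unadjusted p under 0.05, 5 of 8 follicle markers (2 without VD pup 6), 4 of 6 common leukocyte markers and 3 of 9 myeloid markers were lower in CSD. No gene of these lists passed the adjusted threshold.

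The mast cell, epithelial and colonocyte lists were mostly higher in CSD, and the small intestine and housekeeping lists had medians within 0.02 of 0. Of 10 mast cell markers 9 had a higher estimate in CSD (median 0.14), led by Tpsb2, a mast cell tryptase, at 0.48 (SE 0.14, limma adjusted p 0.111), and the chymase gene Cma1, at 0.57 (limma adjusted p 0.259). Of 8 epithelial markers 6 did (median 0.11), with Epcam, an adhesion molecule, at 0.17 and Cldn7, a claudin, at 0.14 (limma adjusted p 0.257 and 0.377). Of 6 colonocyte markers 5 did (median 0.17), with the chloride exchanger Slc26a3 at 0.45 and Hoxb13 at -0.15 (limma adjusted p 0.113 and 0.348). The small intestine markers were split 4 and 4, with the fatty acid binding protein Fabp2 at 0.63 (limma adjusted p 0.207) and Apoa1 at background. Of 9 housekeeping genes 7 had a lower estimate in CSD (median -0.02), with Gapdh at -0.16 and Gusb at -0.13 (limma adjusted p 0.167 and 0.229). At an unadjusted p under 0.05, 3 of 9 housekeeping genes were lower in CSD (7.09% of all genes), and 2 of 10 mast cell, 1 of 8 epithelial, 1 of 6 colonocyte and 1 of 8 small intestine markers were higher (7.37% of all genes). None of these genes passed the adjusted threshold. The summed epithelial level, with Krt8 the brightest, averaged 19.11 ± 0.16 for CSD and 19.13 ± 0.13 for VD (SD, n = 8 each). The summed NK and innate lymphoid level averaged 12.55 ± 0.16 and 12.54 ± 0.14 (SD, n = 8 each). That sum mostly reads its brightest genes, Klra1, which was called higher in CSD, and Tyrobp (log2 fold change -0.20, limma adjusted p 0.519). Of the 15 genes of the list, 10 had a lower estimate.

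**Figure D4:**
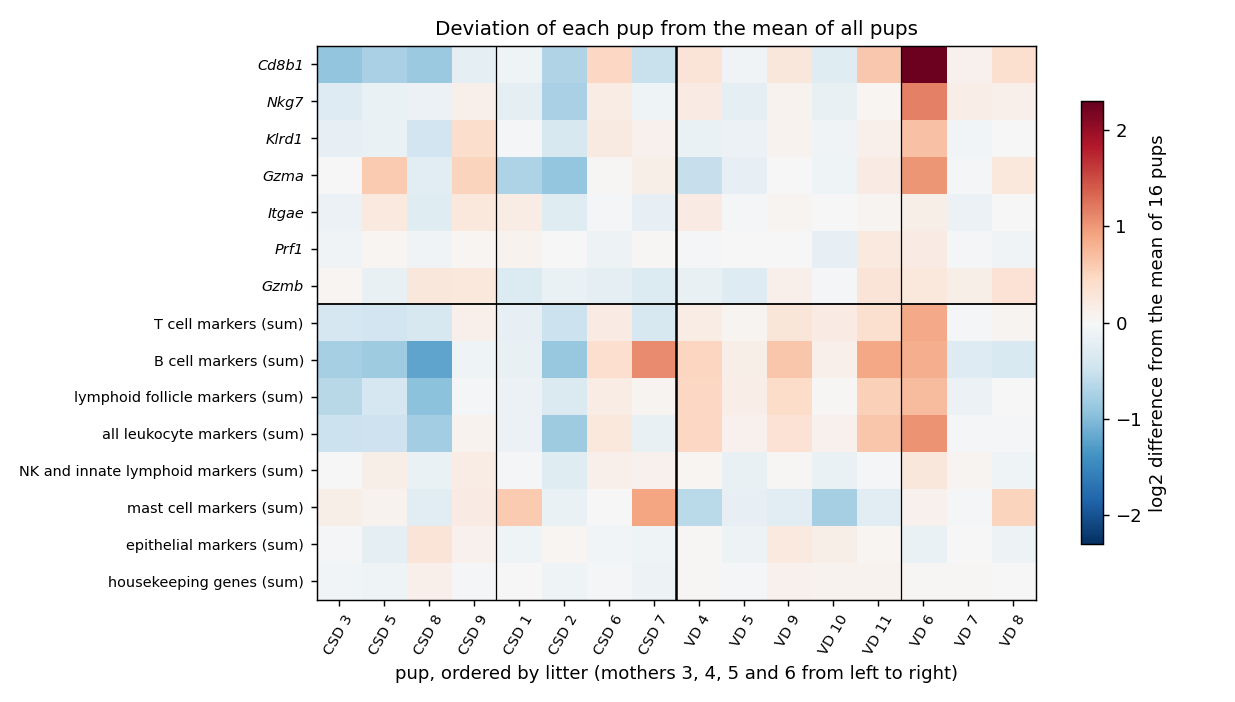
Deviation of each pup from the mean of 16 pups (colour, log2 scale, red above and blue below) for the 7 genes detected in most pups and for 8 summed marker lists, with pups ordered by litter and the thick line between CSD and VD. VD pup 6 is red in Cd8b1, Nkg7, Klrd1 and Gzma and in the T cell row, and the Prf1, epithelial and housekeeping rows are pale throughout.

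The NK and innate lymphoid list held the called genes nearest to the receptor Klrd1. Of its 15 measured genes 10 had a lower estimate in CSD (48.3% of all genes; median -0.02), 1 rose (0.706% of all genes) and 1 fell (0.548%). Klra1, which encodes the NK receptor Ly49A, rose, from a VD mean of 10.71 ± 0.22 (SD, n = 8) to a CSD mean of 11.17 ± 0.09 (SD, n = 8), by 0.44 on the log2 scale (SE 0.08, limma adjusted p 0.0227). Every CSD pup, the lowest at 11.05, lay above every VD pup, the highest at 10.99, a separation seen for 0.496% of all genes. Klra8, which encodes Ly49H, fell, from 7.0 ± 0.44 to 6.22 ± 0.22 (SD, n = 8 each), by 0.80 (SE 0.18, limma adjusted p 0.0393), but it was above background on only 2 of 8 CSD and 7 of 8 VD arrays, so its fold rests partly on background values. The Klra genes are close copies of each other and vary between mouse strains, so which copy each probe read is uncertain. Tyrobp and the other 12 genes did not pass the adjusted threshold. The calls of Klra1 and Klra8 were lost over litter means, in males only and on slide 2, where no gene passed.

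The binding partners were examined as a list of 12 genes, of which 7 had a lower estimate in CSD (48.3% of all genes), 1 at an unadjusted p under 0.05 (7.09% of all genes), and 0 passed the adjusted threshold (1.25% of all genes). The median was -0.11, and -0.0574 without VD pup 6. Itgb7, the beta chain that pairs with Itgae, came nearest. It ran from 11.16 through a median of 11.34 to 11.64 in CSD and from 11.58 through 11.75 to 12.09 in VD, so the groups overlapped only at their edges. Its log2 fold change was -0.37 (SE 0.09, limma p 0.000646, adjusted p 0.0509), while its partner Itgae was at -0.08. Itgb7 also pairs with alpha 4 on other gut lymphocytes. Cdh1, which encodes E-cadherin, was at 0.32 (limma adjusted p 0.619).

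Cd8a, the other chain of CD8, had a log2 fold change of -0.15 (limma adjusted p 0.568), with 4 of 8 CSD and 6 of 8 VD arrays above background. Of the possible partners of CD94, Klrc1 and Klrc3 were not above background on any array and Klrc2 was on 1. Their ligand H2-T23, the mouse Qa-1, was at -0.06, and the class I genes H2-K1 and H2-D1, which present peptides to CD8 T cells, were at -0.21 and -0.28. Tnfrsf14, which encodes HVEM, the ligand of CD160, was at 0.15, its other receptor Btla was at -0.39, and H2-T3, the thymus leukemia antigen bound by CD8 alpha, was at -0.18. Each of these had a limma adjusted p of 0.368 or more.

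Of 22 other granzyme and granule genes, 14 had a lower and 8 a higher estimate in CSD (median -0.10), and 1 rose (0.706% of all genes). That was Rab27a, a small GTPase that docks granules at the membrane in lymphocytes and in other secretory cells, from a VD mean of 7.55 ± 0.10 (SD, n = 8) to a CSD mean of 7.78 ± 0.07 (SD, n = 8), by 0.23 on the log2 scale (SE 0.05, limma adjusted p 0.0288). The lowest CSD pup was at 7.67 and the highest VD pup at 7.66, a separation seen for 0.496% of all genes. No gene passed the threshold over litter means, in males only or on slide 2, so this call and those of Klra1 and Klra8 were lost there. Cst7, cystatin F, an inhibitor of the proteases that activate granzymes, which was picked after its values were seen, was at -0.46 (SE 0.13, limma adjusted p 0.10). At an unadjusted p under 0.05, 6 of the 22 were lower and 4 higher in CSD, against 7.09% and 7.37% of all genes. Both counts rest partly on genes at or near background.

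Of 22 genes for retention and survival in the epithelium, 15 had a lower estimate in CSD (median -0.04, and -0.019 without VD pup 6), 6 of them at an unadjusted p under 0.05 (7.09% of all genes), and 0 passed the adjusted threshold. Ccr9, the chemokine receptor that draws lymphocytes to the gut, was at -0.25 (SE 0.07, limma adjusted p 0.0942), and Tgfb1, whose product induces Itgae, at -0.22 (SE 0.06, limma adjusted p 0.097).

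The genes most like each detected member were sought among 20542 genes detected on all arrays, by Pearson's r across the 16 pups after the delivery and sex terms were removed. For Cd8b1 they were Fam78a (r = 0.95) and Cd28 (r = 0.94), a T cell marker of the list above, and for Klrd1 Cd84 and Fyb (r = 0.96 for both). For Gzma they were Npl (r = 0.92) and Ifi202b (r = 0.91), for Prf1 Mx2 (r = 0.86) and Actr3 (r = 0.86), and for Itgae Itpripl1 and Dtx1 (r = 0.85 for both). For Nkg7 they were a transcript of chromosome 13 with no gene symbol and Cd209b (r = 0.91 for both). Without VD pup 6 both were the same for Klrd1 and Prf1, Npl stayed ahead for Gzma, and both changed for Cd8b1, Nkg7 and Itgae.

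Promoter windows, the 250 bases before each transcription start in the RefSeq annotation of GRCm38.p6, were held for 6 of the 9 genes (Gzma, Gzmb, Gzmk, Prf1, Nkg7 and Cd160, with 2 for Cd160). They were searched on both strands for core letters bound by factors of killer lymphocytes. TGTGGT or its complement ACCACA, the core of Runx sites, was in the windows of Gzma, Gzmb, Prf1, Nkg7 and in both of Cd160, and in 14.0% of all 32817 windows. AGGTGT or ACACCT, a core of T-box sites, was in those of Gzma, Gzmk, Prf1 and Nkg7, and in 11.8% of all. The Ets core AGGAAG was in those of Prf1, Nkg7 and Cd160 (29.5% of all), and the AP-1 core TGANTCA in that of Gzmb (6.75% of all). A match is a description of letters and not a bound site. The windows that held both a Runx and a T-box core are shown in the direction of transcription, with these cores in capitals.
Gzma, chr13:113100982-113101231 (-): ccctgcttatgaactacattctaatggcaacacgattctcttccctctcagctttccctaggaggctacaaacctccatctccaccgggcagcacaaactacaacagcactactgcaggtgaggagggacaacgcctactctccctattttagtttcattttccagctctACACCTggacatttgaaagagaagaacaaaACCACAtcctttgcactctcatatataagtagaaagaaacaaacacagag
Nkg7, chr7:43436888-43437137 (+): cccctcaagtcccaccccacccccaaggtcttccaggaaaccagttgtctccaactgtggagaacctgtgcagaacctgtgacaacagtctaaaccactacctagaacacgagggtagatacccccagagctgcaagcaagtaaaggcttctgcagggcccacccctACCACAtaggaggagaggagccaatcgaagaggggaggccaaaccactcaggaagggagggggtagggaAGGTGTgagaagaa
Prf1, chr10:61297586-61297835 (+): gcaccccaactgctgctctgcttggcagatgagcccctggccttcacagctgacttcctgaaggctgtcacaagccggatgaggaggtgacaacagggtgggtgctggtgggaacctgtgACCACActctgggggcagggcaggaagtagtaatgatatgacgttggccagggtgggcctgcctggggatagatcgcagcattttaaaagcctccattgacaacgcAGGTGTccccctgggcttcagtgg
Counted back from the start site, the Runx core begins at -50 in Gzma, -83 in Nkg7 and -130 in Prf1, and the T-box core at -80, -14 and -24. The SD of the levels of Prf1, Nkg7 and Gzma over 8 pups was 0.07, 0.28 and 0.53 among CSD pups and 0.14, 0.43 and 0.45 among VD pups. In the genome Gzma and Gzmk are neighbours on chromosome 13, Klrd1 lies between Klre1 and Klrk1 on chromosome 6, and Cd8b1 lies next to Cd8a on the same chromosome.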

How the data were processed

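Colon RNA of 16 pups had been labelled with Cy3 and hybridised to 16 1-colour Agilent mouse arrays on 2 slides. The deposited scanner files of the authors hold linear intensity values for 62976 spots, background included, per the file headers. A deposited gene matrix of 27036 genes holds log2 values that the authors had normalized with limma 3.38, and 7 of the 9 genes are in it. It served as an alternative.

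Mean and background intensities were corrected here with normexp (offset 50), control and outlier spots were dropped, and log2 values were quantile normalized in limma 3.58.1 (R 4.3.3). Probes above the 5% quantile of their array on at least 4 arrays were kept (56366 of 56605) and averaged by gene, which left 36711 genes (218 with a missing value on some array). Each gene was fitted on delivery and sex with the mother as a random effect (duplicateCorrelation, consensus correlation 0.0152), and p-values were adjusted by the Benjamini-Hochberg method over all genes at 0.05. The fit was tested on simulated data. Correlations used 100000 permutations. Arrays give no read depth, so the 16 arrays and, for delivery, the 4 litters limit the precision.

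Named were all 9 genes, all binding partners, of each other list the genes that passed the threshold or else the 2 with the smallest p, and the 2 genes most like each detected member. Outside this rule, Cst7, Cd3e, Cd4, Tyrobp, Krt8, the small intestine markers and neighbours in the genome were also named. The 9 genes and the marker lists were chosen with earlier results of these data known. Zfp683 and Klra3 of these lists were not among the genes measured. The alternatives are given at the end.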

Additional observations from a re-analysis of the deposited data

Results flagged for a closer look

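Within each delivery group of 8 pups, the gap between the highest or lowest pup and the next was divided by the range of the group, and a ratio above the 95% critical value of Dixon's test for 8 samples was taken as apart. Of 18 groups (9 genes in CSD and VD), 5 held such a pup, where chance gives about 1 in 20. In VD pup 6 the ratio was 0.648 for Cd8b1 (10.09, with the next VD pup at 8.45), 0.702 for Nkg7 (9.65 against 8.67), 0.686 for Klrd1 (8.16 against 7.60) and 0.563 for Gzmk (6.33 against 6.12, at background). The same pup was apart in this way, above the other VD pups, for 1.61% of all genes without a missing value, and for 7 of 14 T cell markers and 0 of 9 B cell markers. In VD pup 5 the ratio was 0.678 for Cd160 (6.69 against 6.24). These flags are not independent, since 4 of the 5 come from the same pup. No CSD pup was apart in any of the 9 genes.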

How the results depend on the processing

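None of the 9 genes passed the adjusted threshold between CSD and VD in any of 38 alternatives, nor for sex, the interaction or the litters in 19 each. Gzmk and Cd160 were not tested in the deposited matrix or with only probes well above background on at least 8 arrays, which left 7 genes there. Cd8b1 stayed lower in CSD in every alternative, from -1.18 to -0.535 on the log2 scale, with limma adjusted p-values from 0.105 to 0.628. At an unadjusted p under 0.05 limma called 1 of the 9 as fitted (5307 of 36711 genes), without the mother (5616) and over litter means (4034), and 1 of 7 in the deposited matrix (4262 of 27036). Prf1 turned sign in the deposited matrix (0.000794) and on slide 1 (0.0306). Leaving out a pup or a litter, it ranged from -0.0517 to 0.0127, Klrd1 from -0.133 to 0.0509, Gzma from -0.309 to 0.205 and Gzmb from -0.276 to 0.108, each across 0. These 4 sit close to 0 for their error. Itgae stayed below 0 in every alternative, from -0.163 to -0.0155, and was -0.0383 without CSD pup 8 and -0.142 without CSD pup 9. The size of some estimates also depended on the background correction. Cd8b1, at -0.793 as fitted, was at -1.11 with the scanner's own correction and quantile normalization. It was at -1.1 with that correction and the 75th percentile, and at -1.03 in the deposited matrix. With the scanner's own correction Gzmb was at -0.358 after quantile normalization and at -0.354 with the 75th percentile. Klrd1 was at -0.103 and -0.108 in these 2 alternatives.

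The background count of 460 genes between CSD and VD was less steady. It was 243 with offset 16, 177 with the scanner's own correction and quantile normalization, 164 with that correction and the 75th percentile, 170 in the deposited matrix, 992 without sex, 0 in males only, 11 on slide 1, 0 on slide 2, 0 over litter means and 1126 at an adjusted p under 0.1. Leaving out a pup or a litter it ranged from 138 (without mother 4) to 2265 (without mother 6). It was 212 and 189 without mothers 3 and 5, 278, 300, 238, 271, 257, 180 and 222 without CSD pups 1, 2, 3, 5, 6, 7 and 9, and 145, 243 and 304 without VD pups 4, 5 and 11. Fewer samples enter the single-sex, single-slide and litter fits, and the cause of the other shifts was not tested.

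Pup numbers 5 to 9 occur in both groups. Deviations of same-numbered pups correlated at 0.115, 0.215, 0.017, -0.0492 and 0.0614, and 2 of the 5 CSD pups correlated best with the VD pup of their own number. So few pairs cannot decide whether same-numbered pups share more than a number, and the main fit did not pair them. With the replicate block, over these 5 pairs, 0 genes were called.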
